A study of Homo sapiens with 9 samples.

Results

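In human SaOS2 osteosarcoma cells, 296 of 12245 genes tested were higher during 3 days of doxycycline than both in untreated cells and 3 days after its removal. They were selected by their measured values: the doxycycline mean had to lie at least 0.4 on the log2 scale above both the recovery mean and the control mean, and each of the 3 doxycycline arrays had to exceed each of the 3 recovery and the 3 control arrays. Both genes that name the pattern, SPTB and FSTL3, met the rule. Every difference between doxycycline and the other groups is therefore a description of how these genes were chosen and carries no test.

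SaOS2 is an established line grown from a human osteosarcoma, and its cells had been made to express RNA antisense to APC under the control of doxycycline; per the labels they were kept in G418 and hygromycin. Doxycycline cells received the drug at 1 µg/ml for 3 days, recovery cells received the same course and were then grown for 3 further days without it, and control cells were untreated. Each group held 3 samples of total RNA, hybridised to single-colour Illumina bead arrays. All 3 groups are cells of this engineered line, per the design text, no cells given the drug without the antisense construct were analysed here, and so the drug and the antisense RNA cannot be told apart. Removal of the drug and the additional days of culture cannot be told apart either.

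APC is the scaffold on which beta-catenin is tagged for degradation, and its loss is the textbook route to a Wnt signal that does not switch off. Osteoblast-lineage cells such as these secrete collagen and other matrix proteins, which are folded and hydroxylated in the endoplasmic reticulum and glycosylated in the Golgi. The same route delivers receptors to the surface and acid hydrolases to the lysosome. The genes are described below by the role of their products, from matrix to lysosome, then receptors, cytoskeleton and transporters.

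On each array 20141 to 21317 of the 47322 probes were called detected. Of 8 osteoblast genes with a signal out of a list of 12, RUNX2 averaged 11.75, 11.55 and 11.52 and ALPL 14.31, 14.35 and 14.26 log2 intensity in doxycycline, recovery and control cells, so transcripts of the labelled cell type were present, while BGLAP, SPP1 and PHEX did not pass the detection filter. The probe for APC read 4.76, 4.78 and 4.72 in doxycycline-treated cells, 4.85, 4.48 and 4.86 in recovery cells and 4.13, 4.0 and 5.18 in control cells, close to the floor of 4, and its groups overlapped; a probe for the sense transcript does not report the antisense RNA. Doxycycline replicate 2 stood apart from the other arrays, at 53.74 on the second principal component against -6.53 and 11.88 for doxycycline replicates 1 and 3, -7.73 to -3.8 for recovery and -15.08 to -12.39 for control arrays. Over all genes the median SD between arrays was 0.25 in doxycycline, 0.13 in recovery and 0.13 in control cells. In these bulk samples, fewer cells of a kind and less RNA per cell cannot be told apart.

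The bases upstream of the start of 4 genes are shown because the members are defined by levels of their transcripts: SPTB and FSTL3 name the pattern, COL6A2 had the largest margin among the matrix genes, and PTGDS was among the genes whose values owed least to replicate 2. Each run is the 250 bases before the start of the RefSeq gene on GRCh38.p14, 5′ to 3′ on the gene's strand, at chr14:64879908-64880157 (minus strand) for SPTB, chr19:676142-676391 (plus strand) for FSTL3, chr21:46097862-46098111 (plus strand) for COL6A2 and chr9:136977254-136977503 (plus strand) for PTGDS. Capitals mark matches, on either strand, to 7 motifs: TATAAA (the TATA box), CCAAT (the CCAAT box), CACGTG (an E-box), TGANTCA (the core read by AP-1), GGAATG (the core read by TEAD factors), GGGCGG (the GC box) and CCACG (part of the endoplasmic reticulum stress element).
SPTB: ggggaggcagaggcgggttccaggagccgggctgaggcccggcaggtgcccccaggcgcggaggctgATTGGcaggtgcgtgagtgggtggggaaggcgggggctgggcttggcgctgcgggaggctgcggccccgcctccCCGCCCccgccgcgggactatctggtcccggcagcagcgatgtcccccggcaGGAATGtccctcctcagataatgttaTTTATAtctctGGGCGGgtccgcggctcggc
FSTL3: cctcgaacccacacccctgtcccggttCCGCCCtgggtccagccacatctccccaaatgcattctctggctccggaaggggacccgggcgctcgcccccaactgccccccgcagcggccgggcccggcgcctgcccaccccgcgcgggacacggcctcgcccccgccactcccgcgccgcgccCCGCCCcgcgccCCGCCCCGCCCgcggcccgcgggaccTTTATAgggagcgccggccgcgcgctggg
COL6A2: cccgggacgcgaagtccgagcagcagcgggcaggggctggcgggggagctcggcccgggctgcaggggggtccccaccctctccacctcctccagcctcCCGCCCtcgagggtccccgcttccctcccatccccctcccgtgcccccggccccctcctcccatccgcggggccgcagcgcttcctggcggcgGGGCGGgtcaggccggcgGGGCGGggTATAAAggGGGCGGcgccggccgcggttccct
PTGDS: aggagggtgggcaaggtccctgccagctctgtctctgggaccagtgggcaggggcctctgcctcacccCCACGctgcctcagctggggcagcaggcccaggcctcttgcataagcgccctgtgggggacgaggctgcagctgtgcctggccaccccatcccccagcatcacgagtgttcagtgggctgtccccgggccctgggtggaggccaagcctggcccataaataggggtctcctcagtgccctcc
SPTB, FSTL3 and COL6A2 each held 1 TATAAA on either strand in the printed stretch, and 2, 4 and 4 copies of GGGCGG. PTGDS held none of these and 1 CCACG.

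RefSeq promoter windows, from 250 bases before to 50 bases after the gene start, were at hand for 238 of the 296 members and 9871 of all genes tested. In members against all genes tested, the share of windows holding a motif was 5.88% against 6.37% for TATAAA, 30.3% against 37.1% for CCAAT, 73.5% against 67.7% for GGGCGG, 5.46% against 10.1% for CACGTG, 41.6% against 49.1% for CCACG, 5.04% against 4.66% for TGANTCA and 10.5% against 10.8% for GGAATG. A match to CCACG can share bases with a match to CACGTG. The windows' median GC content was 67.7% in members and 64.7% over all genes, and the genes themselves spanned a median of 34.8 kb in members against 28.2 kb over all genes. These shares describe the letters only and were not tested.

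SPTB encodes the beta spectrin of the red cell membrane skeleton. Its log2 intensity was 7.68, 8.28 and 7.64 in doxycycline-treated cells, 6.02, 6.36 and 6.45 in recovery cells and 6.57, 6.94 and 6.65 in control cells. All 3 doxycycline arrays lay above all others, with a mean 2.22-fold that of control and 3.01-fold that of recovery cells, and replicate 2 was the highest. FSTL3, a secreted glycoprotein that binds and blocks activin and myostatin, read 9.47, 10.17 and 9.73 in doxycycline-treated cells, 8.90, 8.76 and 8.95 in recovery cells and 8.82, 8.89 and 8.68 in control cells. Its doxycycline mean was 1.99-fold the control and 1.89-fold the recovery mean, and recovery and control arrays overlapped. Without replicate 2 the margin, which is the doxycycline mean minus the higher of the other group means, was 0.94 for SPTB and 0.73 for FSTL3, against 1.15 and 0.92 with all arrays, so both genes met the rule without it.

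**Figure D1:**
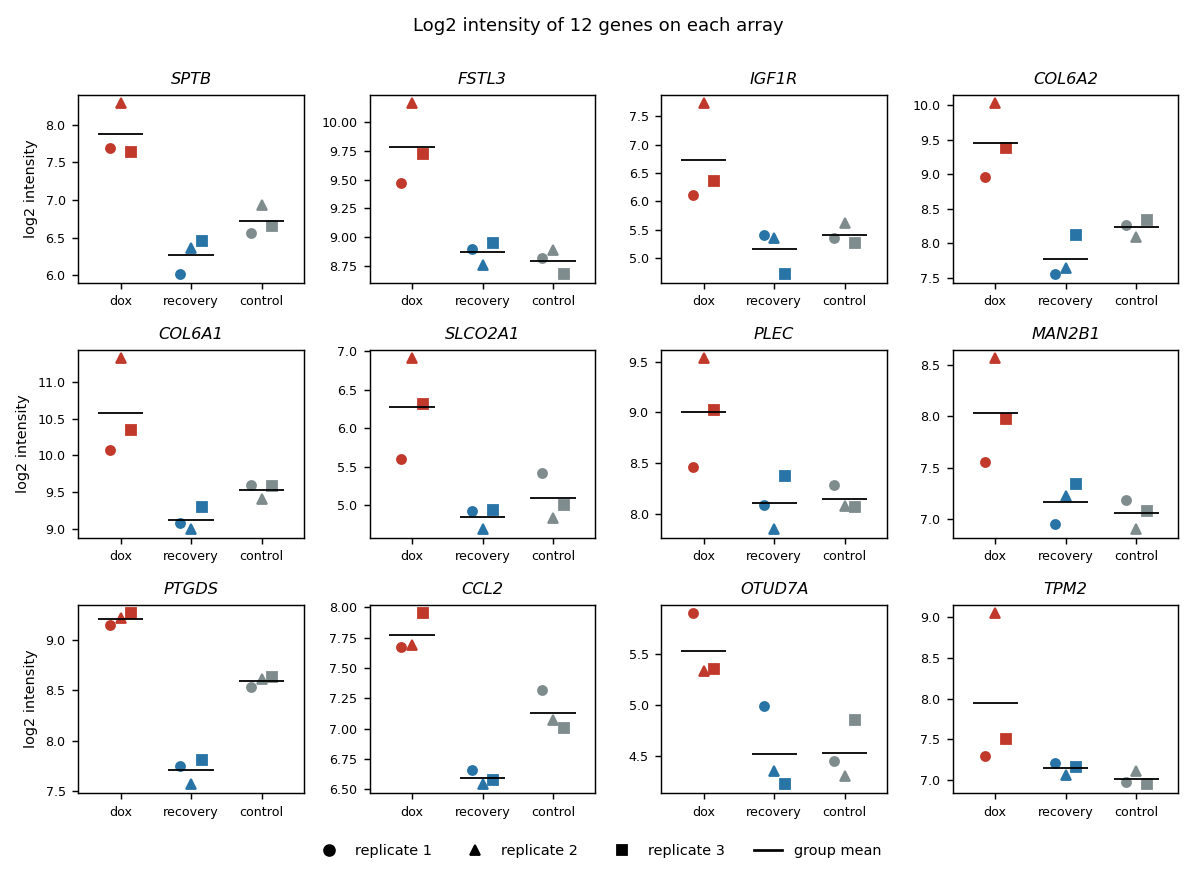
Log2 intensity (y axis) of 12 genes on each of the 9 arrays, by group (x axis: doxycycline, recovery, control); symbols are replicates and the horizontal line is the group mean of 3 arrays. Doxycycline replicate 2 (triangle) is the highest array for SPTB, FSTL3, IGF1R, COL6A2, COL6A1, SLCO2A1, PLEC, MAN2B1 and TPM2, whereas the 3 doxycycline arrays of PTGDS lie together and OTUD7A is highest on replicate 1.

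How much of the pattern rested on replicate 2 was measured by leaving that array out. The rule was then met by 181 genes (1.48% of all genes, against 2.42% with all arrays), of which 128 were among the 296, or 43.2% of the 296 and 70.7% of the 181. With any array left out, fewer arrays had to be separated, so the condition of no overlap was easier to meet. For the 168 genes that dropped out the margin ran from 0.14 to 0.40, with a median of 0.30. That it stayed positive was fixed by the rule, since each doxycycline array had to exceed all recovery and control arrays. Over all 296 genes the median margin was 0.38 without replicate 2 against 0.56 with it, 289 genes kept a margin of at least 0.2, and 28 had a larger margin without it. Replicate 2 was the highest doxycycline array for 259 of the 296 genes (87.5%, against 39.4% of all genes), replicate 1 for 18 and replicate 3 for 19, while replicate 1 was the lowest for 242. Leaving out replicate 1 instead gave 968 genes, including 293 of the 296, and leaving out replicate 3 gave 400, including 290.

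The genes that kept the rule without replicate 2 and those that lost it differed in signal over background. Control means had a median of 6.74 in the 128 and 9.33 in the 168, and 49 of the 128 against 7 of the 168 had a control mean under 6, near the floor of the scale. All 296 genes were detected on all 3 doxycycline arrays and 268 on all 9 arrays; 103 of the 128 and 165 of the 168 were detected on all 9. In 15 genes the detection filter was passed only through the doxycycline arrays, so for these a difference was built into the selection. For genes not detected on any array of a group the doxycycline excess is a bound, from at least 1.75-fold over control for ATXN2L and at least 3.06-fold over recovery for SLC4A3 to at least 1.11-fold over control for HAND2.

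**Figure D2:**
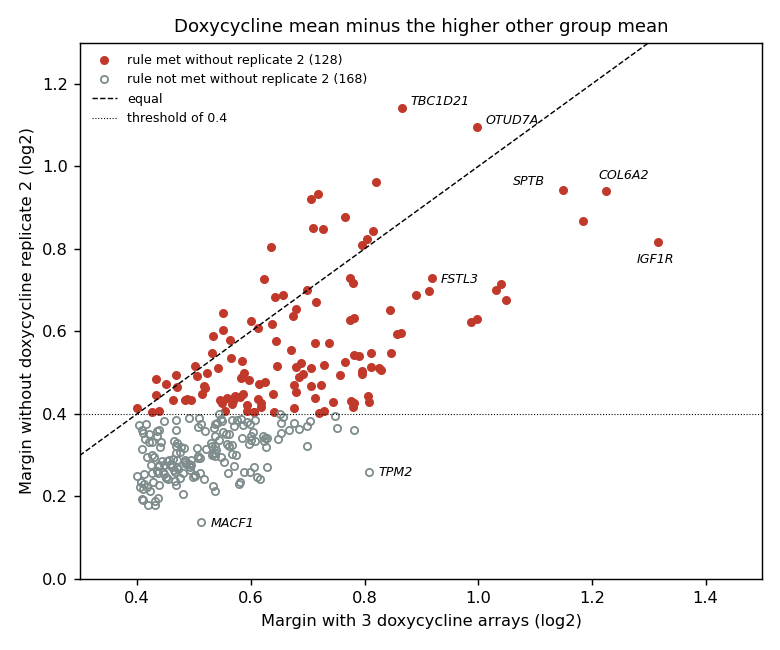
Margin of each of the 296 genes (doxycycline mean minus the higher of the recovery and control means, log2) with 3 doxycycline arrays (x axis) and without doxycycline replicate 2 (y axis); filled points are the 128 genes that met the rule without it and open points the 168 that did not. Most points lie below the dashed line of equality, IGF1R and TPM2 far below it, while TBC1D21 and OTUD7A lie above it.

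**Figure D3:**
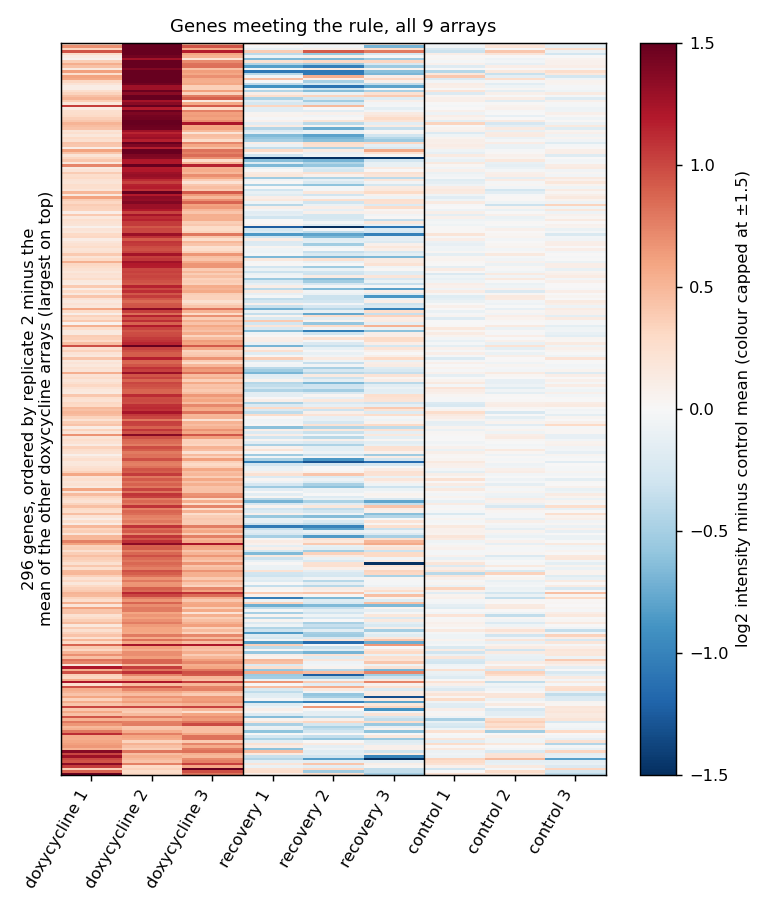
Log2 intensity minus the control mean for the 296 genes (rows, ordered by replicate 2 minus the mean of the other doxycycline arrays) on the 9 arrays (columns), with colour capped at 1.5 in either direction. The doxycycline replicate 2 column is the darkest for most rows, replicates 1 and 3 are paler, and the recovery columns are blue or pale in most rows.

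By margin the members ran from 0.4 to 1.32. Just inside the threshold lay MAP1A, TGFBI, LZTS1 and FZD5 at 0.40 and EP400 at 0.41, and just outside it KAT7 at 0.399 and AHDC1, LSAMP, PYGB and CNNM2 between 0.395 and 0.397. A total of 602 genes (4.92%) had doxycycline arrays above all others at any margin, and the mirrored rule, with doxycycline lowest, was met by 160 genes (1.31%), of which 68 met it without replicate 2.

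For reading by function, 150 of the 296 genes (50.7%) were put into 10 groups by what their products do; the groups were formed after the values were seen and are not tested. Medians of the doxycycline minus control difference ran from 0.55 for the endoplasmic reticulum, Golgi and glycosylation group to 0.81 for transporters, against 0.61 over all 296 genes and 0.02 over all 12245 genes. Without replicate 2 they ran from 0.33 for adhesion and guidance receptors to 0.53 for transporters.

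**Figure D4:**
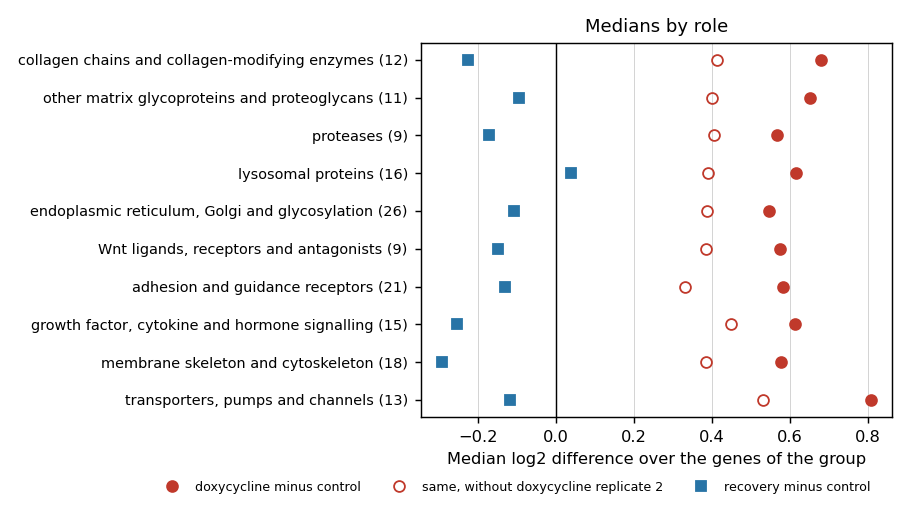
Median log2 difference (x axis) over the genes of each of 10 role groups (y axis, number of genes in parentheses): doxycycline minus control with all arrays (filled circles) and without doxycycline replicate 2 (open circles), and recovery minus control (squares). The open circles lie left of the filled ones in every group, and the squares lie at or below 0 except for the lysosomal group at 0.04.

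Collagen chains and the enzymes that modify them made up 12 members, with margins from 0.53 to 1.22, and replicate 2 was the highest array for all 12. COL6A2, an alpha chain of the microfibrillar collagen VI, read 8.96, 10.03 and 9.38 in doxycycline-treated cells, 7.56, 7.65 and 8.12 in recovery cells and 8.26, 8.09 and 8.34 in control cells. COL6A1, the partner chain, read 10.07, 11.32 and 10.34 in doxycycline-treated cells, 9.07, 8.99 and 9.29 in recovery cells and 9.60, 9.40 and 9.59 in control cells. In both genes the doxycycline group stood clear of the others, at 2.34-fold the control mean for COL6A2 and 2.07-fold for COL6A1; they are neighbours among the tested genes on chromosome 21 (GRCh38.p14), COL6A1 at 45981770 to 46005048 and COL6A2 at 46098112 to 46132848. A second probe of COL6A2 had a margin of 1.04 and met the rule, and another had a margin of -0.37. COL18A1, the basement membrane collagen whose end is cleaved to endostatin, read 7.94, 9.24 and 8.34 in doxycycline-treated cells, 6.68, 6.49 and 6.96 in recovery cells and 7.31, 7.61 and 7.61 in control cells. COL1A1, the main chain of bone collagen, read 13.40, 14.17 and 13.65 in doxycycline-treated cells, 13.05, 13.02 and 13.40 in recovery cells and 13.03, 13.16 and 13.21 in control cells, and its margin without replicate 2 was 0.37, under the threshold. Among the modifying enzymes, COLGALT1, which adds galactose to hydroxylysine, had a margin of 0.63 (0.48 without replicate 2), PLOD3, a lysyl hydroxylase, 0.53 (0.30), P3H2, a prolyl 3-hydroxylase, 0.70 (0.37), and LOXL1, a lysyl oxidase that crosslinks elastin, 0.54 (0.31). Of the 12 genes 5 kept the rule without replicate 2: COL6A2, COL6A1, COL18A1, COL12A1 and COLGALT1. A second probe of COL12A1 had a margin of 0.06 and did not meet the rule.

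Other matrix glycoproteins and proteoglycans numbered 11. CRISPLD2, a secreted glycoprotein, read 9.02, 10.08 and 9.38 in doxycycline-treated cells, 6.99, 7.01 and 7.24 in recovery cells and 8.64, 8.74 and 8.70 in control cells. The 3 groups did not overlap, and the recovery arrays were the lowest. GPC1, a glypican that carries heparan sulfate on the cell surface, read 11.26, 12.25 and 11.75 in doxycycline-treated cells, 10.10, 10.17 and 9.95 in recovery cells and 11.15, 10.99 and 10.74 in control cells, again in the order doxycycline, control, recovery. FBN2, a fibrillin, and ECM1 had margins of 0.67 and 0.65 (0.36 and 0.40 without replicate 2). FBLN1, a fibulin, had a margin of 0.45 at its brightest probe and 1.24 at another, which also met the rule. VWF, the clotting factor carrier and the only one of 5 endothelial markers with a signal, had a margin of 0.57; PECAM1, CDH5, KDR and TEK did not pass the detection filter.

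Proteases numbered 9, from 0.42 for PCSK7 to 0.91 for CPA4. CPA4, a metallocarboxypeptidase, read 7.88, 8.64 and 8.11 in doxycycline-treated cells, 6.59, 6.86 and 6.29 in recovery cells and 7.31, 7.17 and 7.42 in control cells. MMP14, the membrane-bound collagenase, read 6.49, 7.11 and 7.04 in doxycycline-treated cells, 6.36, 6.39 and 5.89 in recovery cells and 5.81, 5.70 and 6.42 in control cells. Both separated the doxycycline arrays from the rest and kept the rule without replicate 2, as did CPVL and MME. FURIN and PCSK7, proprotein convertases of the Golgi, had margins of 0.47 and 0.42 (0.38 and 0.21).

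The endoplasmic reticulum, Golgi and glycosylation group held 26 members and 7 of them kept the rule without replicate 2. It included 4 enzymes that start mucin-type O-glycosylation, GALNT2, GALNT9, GALNT16 and GALNT17, and enzymes that build or sulfate glycosaminoglycans, EXTL3, NDST3, CHPF, CHST14 and SLC35B2, the last a carrier of the sulfate donor. GALNT2 read 6.41, 6.98 and 6.67 in doxycycline-treated cells, 5.42, 5.07 and 5.42 in recovery cells and 6.10, 5.82 and 5.82 in control cells. ERO1A, which oxidises protein disulfide isomerase, had a margin of 0.62 (0.43 without replicate 2), and ATF6, a sensor of unfolded protein, 0.48 (0.32). NDST3 was even across the drug arrays, at 5.57, 5.52 and 5.58, with 4.96, 5.08 and 5.03 in recovery and 4.65, 5.13 and 4.53 in control cells.

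Lysosomal proteins numbered 16, all highest on replicate 2, and 3 of them (MAN2B1, PLA2G15 and SLC66A1) kept the rule without it. MAN2B1, the lysosomal alpha-mannosidase, read 7.56, 8.57 and 7.97 in doxycycline-treated cells, 6.94, 7.22 and 7.34 in recovery cells and 7.18, 6.90 and 7.08 in control cells. GAA, the acid alpha-glucosidase missing in Pompe disease, had a margin of 0.62, which was 0.24 without replicate 2. SMPD1, the acid sphingomyelinase, and NPC1, the cholesterol exporter, had margins of 0.57 and 0.60 (0.30 and 0.33), and GUSB and NAGLU, hydrolases that degrade glycosaminoglycans, 0.50 and 0.59 (0.25 and 0.38). IGF2R, the mannose 6-phosphate receptor that sorts acid hydrolases, read 12.85, 13.63 and 13.15 in doxycycline-treated cells, 12.07, 11.70 and 12.10 in recovery cells and 12.74, 12.73 and 12.66 in control cells, with the recovery arrays lowest.

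Proteins of Wnt signalling numbered 9: the ligands WNT11 and WNT10B, the receptors FZD2, FZD3 and FZD5, the co-receptors LRP5, ROR1 and PTK7, and NOTUM, an enzyme that inactivates Wnt ligands by removing their lipid. ROR1 read 8.18, 9.17 and 8.36 in doxycycline-treated cells, 7.68, 8.0 and 7.64 in recovery cells and 7.89, 7.69 and 7.74 in control cells. LRP5 read 8.43, 9.27 and 8.59 in doxycycline-treated cells, 7.91, 7.78 and 7.99 in recovery cells and 7.90, 8.11 and 8.11 in control cells. The largest margin in this group was that of ROR1, 0.80 (0.50 without replicate 2), and LRP5, PTK7 and WNT11 also kept the rule. Second probes of ROR1 and PTK7 had margins of 0.67 and 0.53 (0.30 and 0.26) and did not meet the rule. NOTUM read 11.16, 11.91 and 11.53 in doxycycline-treated cells, 10.75, 10.63 and 10.83 in recovery cells and 10.99, 10.90 and 10.99 in control cells, and its margin was 0.39 without replicate 2. Its second probe had a margin of 0.66 (0.50) and met the rule with and without that array.

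Adhesion and guidance receptors numbered 21, all highest on replicate 2, and 5 kept the rule without it: DCHS1, ITGB4, DDR1, UNC5B and LRRC4C. DDR1, a kinase that binds collagen, read 9.81, 10.54 and 9.83 in doxycycline-treated cells, 9.25, 9.17 and 9.41 in recovery cells and 9.30, 9.35 and 9.20 in control cells. DCHS1, a large cadherin, had a margin of 0.83 (0.51 without replicate 2), and the integrin chains ITGA3 and ITGA10 had 0.70 and 0.58 (0.38 and 0.23). CDH2, N-cadherin, lay at 0.45 (0.24).

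Growth factor, cytokine and hormone signalling gave 15 members. IGF1R, the insulin-like growth factor receptor, had the largest margin of all 296 genes, 1.32, and read 6.11, 7.73 and 6.36 in doxycycline-treated cells, 5.41, 5.36 and 4.72 in recovery cells and 5.36, 5.62 and 5.27 in control cells. Replicate 2 lay far above the other drug arrays, and without it the margin was 0.82. CCL2, a chemokine that attracts monocytes, read 7.68, 7.69 and 7.95 in doxycycline-treated cells, 6.65, 6.54 and 6.57 in recovery cells and 7.32, 7.07 and 7.0 in control cells. Here the 3 drug arrays lay together, and the margin without replicate 2, 0.68, was larger than the 0.64 with it. EDN1, the precursor of endothelin-1, was similarly even at 7.58, 7.64 and 7.57 in doxycycline-treated cells, 6.69, 7.04 and 7.20 in recovery cells and 7.17, 7.08 and 6.97 in control cells. HBEGF, a ligand of the epidermal growth factor receptor, had a margin of 0.74 (0.57), and LRP1, an endocytic receptor, 0.78 (0.36).

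Beside SPTB, the membrane skeleton and cytoskeleton group of 18 held SPTBN1, the main non-erythroid beta spectrin. It read 10.90, 11.55 and 11.22 in doxycycline-treated cells, 9.98, 10.21 and 9.91 in recovery cells and 10.57, 10.74 and 10.74 in control cells. Its margin was 0.54, and 0.38 without replicate 2, under the threshold. Further probes of SPTBN1 had margins of 0.30 and 0.14 and did not meet the rule. PLEC, plectin, which links intermediate filaments to other filaments, read 8.46, 9.53 and 9.03 in doxycycline-treated cells, 8.09, 7.85 and 8.38 in recovery cells and 8.29, 8.09 and 8.08 in control cells. TPM2, a tropomyosin, read 7.30, 9.05 and 7.50 in doxycycline-treated cells, 7.21, 7.05 and 7.16 in recovery cells and 6.97, 7.11 and 6.94 in control cells, and its margin depended most on replicate 2 of all members, at 0.26 without it against 0.81 with it. MACF1, which joins actin to microtubules, had the smallest margin without replicate 2, 0.14 against 0.51. ACTN4, an actin crosslinker, and VCL, vinculin of focal adhesions, had 0.58 and 0.42 (0.49 and 0.30). AHNAK, a very large scaffold protein, met the rule at its brightest probe, while its other 2 probes had margins of -0.27 and -0.35. Of 13 erythroid markers 4 had a signal, HBA2, HBG2, ANK1 and KLF1, none was a member, and the log2 of their summed intensity was 7.78 to 7.87 in doxycycline, 7.38 to 7.52 in recovery and 7.57 to 7.81 in control cells; HBB and ALAS2 did not pass the detection filter.

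Transporters, pumps and channels numbered 13 and 8 kept the rule without replicate 2. SLCO2A1, the prostaglandin transporter, read 5.59, 6.91 and 6.31 in doxycycline-treated cells, 4.92, 4.69 and 4.93 in recovery cells and 5.42, 4.84 and 5.0 in control cells. SLC34A1, a sodium phosphate cotransporter, read 5.92, 7.10 and 6.30 in doxycycline-treated cells, 4.93, 5.15 and 5.22 in recovery cells and 5.49, 5.52 and 5.21 in control cells. In both the lowest drug array was replicate 1, the drug array nearest to the control arrays. PKD1, polycystin-1, had the largest doxycycline minus control difference, 1.45, or 1.06 without replicate 2. Its recovery arrays, at 6.17, 6.71 and 6.57, lay mostly above its control arrays, at 5.47, 6.19 and 5.70. The margin of PKD1 was 0.75, and 0.37 without replicate 2, under the threshold. PIEZO1, a stretch-activated channel, and CACNA1C, a calcium channel, had margins of 0.72 and 0.81 (0.40 and 0.43). SLC38A10, an amino acid transporter, had a margin of 0.85 (0.55), while its second probe had 0.34 and overlapping groups.

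The other 146 members did not fall into these groups, and 73 of them kept the rule without replicate 2. PTGDS, which makes prostaglandin D2, read 9.14, 9.22 and 9.26 in doxycycline-treated cells, 7.75, 7.57 and 7.81 in recovery cells and 8.54, 8.61 and 8.64 in control cells. The SD over its drug arrays was 0.06, and its 3 groups did not overlap. OTUD7A, a deubiquitinase, read 5.90, 5.34 and 5.36 in doxycycline-treated cells, 5.0, 4.35 and 4.22 in recovery cells and 4.45, 4.30 and 4.85 in control cells. TBC1D21, a member of a family of Rab regulators, read 5.97, 4.81 and 5.30 in doxycycline-treated cells, 4.59, 4.76 and 4.0 in recovery cells and 4.70, 4.67 and 4.12 in control cells. Both were highest on replicate 1 and dim, and without replicate 2 their margins were 1.10 and 1.14; the drug replicate 2 of TBC1D21 lay just above the highest recovery array. PPIAL4G, a copy of the cyclophilin A gene, was highest on replicate 3, at 5.69, 5.67 and 6.93 on the drug arrays; its family holds near-identical copies, so which of them the signal comes from is uncertain. XIAP, an inhibitor of caspases, TMEM129, a ubiquitin ligase of the endoplasmic reticulum, and SYNPO2L, an actin-associated protein of muscle, were also dim. Their margins were larger without replicate 2, at 0.92, 0.88 and 0.85, than with it, at 0.71, 0.77 and 0.71. SYNPO2L was not detected on any recovery or control array, so its excess is a bound, at least 1.26-fold over control and 1.32-fold over recovery. FAM234B, ERMAP, an erythroid membrane protein, and PCDHB17P, a protocadherin pseudogene, had margins of 0.89, 0.85 and 0.83 and kept the rule without replicate 2 (0.69, 0.65 and 0.51). SERINC2 and OR5C1 were not detected on any control array and lay at least 1.55-fold and 1.23-fold above it. OTUD7A, XIAP, SYNPO2L, SERINC2 and OR5C1 were among the 15 genes that passed the detection filter only through the doxycycline arrays. For these a difference was built into the selection.

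Other probes gave a partial second reading of the same RNA. For 69 members there were 81 further detected probes, with a median margin of 0.39; 69 of the probes had a positive margin and 12 a negative one. The rule was met by 17 of the 81 (21.0%), against 72 of 4128 further probes over all genes (1.74%). Probes of 1 gene share its transcripts and the same arrays, and some read other isoforms.

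The comparison that the rule did not use was recovery against control, which asks whether levels 3 days after withdrawal differed from untreated levels. With limma and Benjamini-Hochberg adjustment over all genes, 17 of the 296 genes were lower and 2 higher in recovery cells at an adjusted p under 0.05 (6.42% in all, against 17.8% of all genes; lower in 5.74% against 8.31%, higher in 0.676% against 9.45%). Since the rule requires both group means to lie under the doxycycline mean, large differences between them are made rarer by the selection. The rule treats recovery and control alike, and why fewer members were higher than lower was not tested. The recovery mean was below the control mean for 195 of the 296 genes, above it for 100 and equal for 1 (below for 50.7% of all genes), and the recovery arrays lay wholly below the control arrays for 81 and wholly above for 19 (27.4% and 6.42%, against 23.4% and 23.6% of all genes). The fit's spread also draws on the doxycycline arrays: without doxycycline replicate 2, 45 members were lower and 5 higher (15.2% and 1.69%, against 14.1% and 15% of all genes, 29.1% in either direction), and with recovery and control alone in the fit 51 were lower and 5 higher (17.2% and 1.69%, against 14.5% and 15.2% of all genes, 29.8% in either direction). Nothing in the labels says that replicates came from separate cultures, so these p-values reflect only how far the arrays of a group lay apart.

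Among genes that were lower in recovery than in control cells, CRISPLD2 fell by 1.62 on the log2 scale (SE 0.23, limma adjusted p = 0.0013), to a level 3.07-fold under control. FGFR3, a fibroblast growth factor receptor that restrains cartilage growth, read 10.29, 11.15 and 10.51 in doxycycline-treated cells, 8.99, 8.53 and 9.12 in recovery cells and 10.24, 10.15 and 10.26 in control cells. It fell by 1.34 (SE 0.23, limma adjusted p = 0.0034), although its doxycycline margin was 0.43 and 0.18 without replicate 2. A second probe of FGFR3 had a margin of 0.0033, which was its excess over control. At that probe the doxycycline mean lay 0.43 above recovery, against 1.77 at the brightest probe, so the fall in recovery was smaller there. LPP, an adaptor of focal adhesions, read 11.96, 12.59 and 12.17 in doxycycline-treated cells, 10.79, 10.52 and 10.66 in recovery cells and 11.95, 11.83 and 11.64 in control cells. Its recovery level fell by 1.15 against control (SE 0.17, adjusted p = 0.0017). PC, pyruvate carboxylase, read 8.24, 8.52 and 8.41 in doxycycline-treated cells, 7.11, 6.78 and 7.20 in recovery cells and 7.88, 7.82 and 8.12 in control cells. Its recovery level fell by 0.91 against control (SE 0.15, adjusted p = 0.0028). PTGDS fell by 0.88 (SE 0.11, adjusted p = 0.00059), with all 3 recovery arrays under all 3 control arrays. These 5 calls held under all 20 alternatives run for them.

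Further members that were lower in recovery cells included MAN2A1, a Golgi mannosidase, which fell by 0.69 (adjusted p = 0.012), CCL2 by 0.54 (adjusted p = 0.018), GPC1 by 0.89 (adjusted p = 0.025), IGF2R by 0.75 (adjusted p = 0.026) and SPTBN1 by 0.65 (adjusted p = 0.027). Of the 20 alternatives, 1 ended the call for MAN2A1, 4 for CCL2, 6 each for GPC1 and SPTBN1 and 7 for IGF2R. The remaining 7 calls were lost more often, in 8 alternatives each for MGAT5 and KAT6B, 9 each for ITGA10 and SUN2, 10 each for CPA4 and GALNT2, and 13 of the 19 that gave a value for ADRA1D. The 2 genes that were higher in recovery than in control cells were TNKS1BP1, which read 6.34, 6.46 and 6.34 in doxycycline-treated cells, 5.94, 5.84 and 6.12 in recovery cells and 5.28, 5.72 and 5.13 in control cells (difference 0.59, adjusted p = 0.032), and NAV2, which read 5.88, 5.88 and 5.71 in doxycycline-treated cells, 5.33, 5.05 and 5.40 in recovery cells and 4.89, 4.30 and 4.81 in control cells (difference 0.59, adjusted p = 0.042). In both, recovery lay between doxycycline and control. The call was lost in 9 of 20 alternatives for TNKS1BP1 and in 13 for NAV2. No member was called higher by limma in 7 of the 20: no detection filter, a trended robust prior, and without doxycycline replicate 3, any 1 recovery replicate or control replicate 3; in these, 3 to 5 members were higher at an unadjusted p under 0.05. A second probe of NAV2 had a doxycycline minus control difference of -0.26, and with detection required on all 9 arrays, which left that probe, the recovery minus control difference was -0.06. SPTB and FSTL3 did not pass in this comparison, with differences of -0.44 (SE 0.20, adjusted p = 0.16) and 0.07 (SE 0.17, adjusted p = 0.81).

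Fuller pathway lists place the members among genes of like function. In doxycycline against control over all genes, limma called 152 genes higher (1.24%) and 25 lower (0.204%); members found in the lists were chosen by this contrast. Of 29 lysosomal genes with a signal, 6 were members and 0 passed the test in either direction, with a median difference of 0.53, or 0.33 without replicate 2, against 0.02 over all genes. In recovery against control, 4 of the 29 were higher and 1 lower, with a median of 0.26 (-0.01 over all genes). At an unadjusted limma p under 0.05, 20 of the 29 were higher and 0 lower, whereas 12.9% of all genes were higher. For 19 endoplasmic reticulum chaperones and unfolded-protein genes, 0 were members and 0 passed, with a median of 0.44 (0.25 without replicate 2), and 12 were higher and 0 lower at an unadjusted limma p under 0.05. ERO1A and ATF6, members named above, were not among the genes of this list. In recovery against control, 4 of these 19 were higher and the median was 0.41; both comparisons share the control arrays. For 22 Golgi and glycosylation genes, 3 were members and 0 passed, with a median of 0.33 (0.17); 8 were higher and 0 lower at an unadjusted p under 0.05. In recovery, 6 of the 22 were lower than in control cells and the median was -0.03 (of all genes, 8.31% were lower and 9.45% higher). Among 11 spectrins, ankyrins and related proteins, 2 were members and no gene but SPTB, itself chosen by this contrast, passed; SPTAN1, the alpha partner of the non-erythroid spectrin, differed by 0.41 (adjusted p = 0.12) and ANK1, an ankyrin that anchors spectrin, by 0.31 (adjusted p = 0.19). In the list of 18 activin and BMP antagonists and TGF-beta targets, no gene but FSTL3, likewise chosen by it, passed, and the median was 0.15.

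Of 20 integrins, laminins and adhesion genes, 2 were members and 2 others rose under the drug, ITGA2 (1.20, adjusted p = 0.041), a collagen-binding integrin chain, and CD44 (0.97, adjusted p = 0.029), the hyaluronan receptor; the list's median was 0.52, or 0.28 without replicate 2, and in recovery against control 4 were higher and 2 lower, with a median of 0.24. Among 14 Wnt target genes 1 was a member and 2 others rose, CD44 and CCND1, cyclin D1 (adjusted p = 0.0056), whose probe lay at the floor on 2 of 3 control arrays. Interferon response genes followed another course, with 24 of 27 higher under doxycycline, 27 of 27 higher in recovery and 0 members. Of 21 ribosomal protein genes 3 were lower, RPL7, RPL24 and RPL39, and the list's median was -0.38.

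The same lists divided by how replicate 2 compared with the mean of the other drug arrays. That difference had a median of 0.58 over the members and -0.05 over all genes. It was 0.86 for integrins, laminins and adhesion, 0.65 for lysosomal, 0.59 for endoplasmic reticulum and 0.42 for Golgi genes, against -0.05 for interferon response, -0.34 for ribosomal protein and -0.37 for nuclear-encoded respiratory chain genes. The part that this array played in the members' difference between groups beyond the values given without it was not tested.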

How the data were processed

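SaOS2 RNA from 3 doxycycline, 3 recovery and 3 control samples was measured on Illumina bead arrays. The authors deposited, per the file headers, an average signal intensity and a detection p-value for each of 47322 probes, below 0 for 29.2% to 32.5% of the intensities, and a sample-named table of normalized intensity values on a linear scale whose medians agree within 14.39 to 14.44. Software, build and versions are not given in the sources used here. The signal table's column codes were matched to samples by rank identity (rank correlation 1 against at most 0.962 for any other column).

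The normalized values were raised to a floor of 16 and log2 transformed, so the lowest log2 value is 4. Probes with exactly 1 gene symbol (30112; 8 had several and 17202 none) and detection p below 0.05 on 3 arrays or more passed (16373), and the brightest probe stood for each of 12245 genes. Linear models over the 9 arrays were fitted in limma (lmFit, eBayes, version 3.58.1, R 4.3.3), with 6 residual and 3.51 prior degrees of freedom. Benjamini-Hochberg adjustment was over all genes. The procedure was tested on simulated arrays with the same spread in every group, unlike the measured ones. In recovery against control it called 16.7% of changes of 0.5 on the log2 scale, 68.1% of changes of 1 and 96.4% of changes of 2. Of its calls 4.82% were false. Tables and figures used Python 3.11.15, pandas 2.3.3 and matplotlib 3.10.9. The number of arrays limits the precision.

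The members and the gene lists were chosen with earlier results of these data known. Genes named are SPTB and FSTL3, the 20 members with the largest margin, the 10 with the largest margin without doxycycline replicate 2, the 5 whose margin drops most without it, the 5 on either side of the threshold, up to 10 with the smallest p in recovery against control, members in a list and up to 4 genes of each list; not every such list gene is named, and members named for their role were added after their values were seen. All comparisons share arrays. Replicates with the same number correlated between -0.088 and 0.085 after removal of group means. With 3 arrays per group, such values cannot settle whether the numbers pair samples. Alternatives covered the floor, the detection filter, the probe rule, the margin, normexp and median scaling of the signals, a replicate block, array weights, the prior and leaving out each array. Sequences are RefSeq's for GRCh38.p14.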

Additional observations from a re-analysis of the deposited data

How the results depend on the processing

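The number of genes that met the rule, 296, was 261 to 306 under another floor, detection filter, probe rule or scaling, 112 with a margin of 0.6, and 181 to 968 when each array was left out in turn (968 without doxycycline replicate 1, 181 without doxycycline replicate 2). The 128 genes kept without doxycycline replicate 2 numbered 89 to 148 under 7 alternatives chosen after seeing the data. With the mean over probes the margin of AHNAK was -0.0046. Members called in recovery against control, 19, were 7 with no detection filter, 69 with array weights, 56 with only the groups compared in the fit and 8 to 50 with single arrays left out (50 without doxycycline replicate 2, 8 without recovery replicate 1 or 2 or control replicate 1). Over all genes that comparison called 2174 genes, 4477 with array weights, 3645 with only its groups and 1222 to 3562 with arrays left out. Doxycycline against control called 177 genes, 72 with no filter, 5681 with array weights, 349 with a trended robust prior, 62 with only its groups and 64 to 1764 with arrays left out (1764 without doxycycline replicate 1, 64 without control replicate 2). Its list genes, 36, were 23, 219, 21 and 21 to 121 under no filter, array weights, only its groups and arrays left out. With the replicate number as a block, 12 members and 25 list genes were called. That fit called 1814 genes in recovery against control and 119 in doxycycline against control. Whether the numbers pair the samples is not known. The recovery minus control difference of NAV2 was -0.06 with detection on all 9 arrays. The causes were not tested. For named members, 757 of the margins recomputed under alternatives moved by less than the spread between replicates, 10 moved by more and 1 reversed, and of the recovery against control values 1178 kept their side of the threshold, 42 passed it and 52 no longer did. Signals near background, as in the genes with a control mean under 6, limit what the margins of dim genes show.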

Other observations

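Of 5666 detected probes without exactly 1 gene symbol, 76 met the same rule (1.34%), and 55 of these met it also without doxycycline replicate 2. They carry no gene name here.

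A further 53 genes met the rule only when doxycycline replicate 2 was left out, which also took it out of the condition of no overlap. The one with the largest margin then was TRAF1, an adaptor of tumour necrosis factor receptors, chosen here after its values were seen; its log2 intensity was 6.12, 4.84 and 5.13 on the 3 doxycycline arrays, against means of 4.55 in recovery and 4.48 in control cells.

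Among the 160 genes lowest under doxycycline, the gene with the largest margin was SNORD13, a small nucleolar RNA used in ribosomal RNA modification, which read 6.78, 5.75 and 5.86 in doxycycline, 8.35, 8.23 and 7.86 in recovery and 7.11, 7.96 and 7.55 in control cells. Its drug arrays lay below all others, replicate 2 lowest. H3C15, a histone gene, read 4.0, 4.29 and 4.90 in doxycycline, 6.84, 7.28 and 7.45 in recovery and 5.45, 5.24 and 5.58 in control cells, so that its 3 groups did not overlap. These differences are descriptions of genes picked by the same arrays.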
